A study of Rattus norvegicus with 10 samples.

Results

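The genes described here carry the glucocorticoid and corticotropin-releasing hormone (CRH) stress signal: the receptors Nr3c1 and Nr3c2, the glucocorticoid-responsive genes Fkbp5, Tsc22d3, Sgk1, Zbtb16 and Klf9, and the CRH genes Crh, Crhr1 and Crhbp. They were chosen by name with earlier results of these data known, and the rule itself holds no measured value. Of the 10, 9 had a row among the 22081 genes of the deposited tables. Nr3c1, the glucocorticoid receptor, was not analysed here. The tissue was medial prefrontal cortex (mPFC) of 10 outbred male Sprague-Dawley rats trained from 11 weeks of age to press a lever for intravenous cocaine at 0.75 mg/kg per infusion, each infusion paired with cues. According to how much they later pressed for those cues, 5 rats were high cue (HC) and 5 were low cue (LC) responders. All rats had taken cocaine and had 10 days of abstinence before tissue was collected on day 27, so no cocaine-naive rat enters any comparison, and females were not studied.

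The names of the deposited tables also mark 6 rats as Cue (HC rats 9, 10 and 11 and LC rats 12, 13 and 14) and 4 as NoCue (HC rats 15 and 16 and LC rats 2 and 4). The sample labels do not carry this mark. The study's methods describe a second cue test given to 3 randomly selected rats of each phenotype on day 27, the number of Cue tables in each phenotype, but no source used here states that the mark means this test. It is therefore called the Cue mark throughout.

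As background, CRH released from the hypothalamus starts the hormonal cascade that ends with corticosterone, the main glucocorticoid of the rat. Corticosterone enters cells and binds the glucocorticoid receptor and the mineralocorticoid receptor (Nr3c2), which then act as transcription factors on genes such as Fkbp5 and Tsc22d3. In cortex, Crh is also made locally by interneurons, and its peptide acts through the receptor CRHR1 and is held by the binding protein CRHBP.

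Each library held 11296517 to 26664008 exon reads and 1701502 to 4200176 intron reads. LC rat 2 stood apart: 28.4% of its exon reads came from mitochondrial genes, against 7.65% to 12.0% in the other 9 rats. Levels are given in CPM, read counts scaled to library size times a factor for library composition (TMM). For exon reads this factor was 0.772 in LC rat 2, against 1.00 to 1.05 in the others, which raises all its exon CPM values. The part of this factor in the levels below was not tested. Its summed interneuron markers were 900 CPM, against 559 to 698 in the others. Of these 6 markers, Sst (248 CPM, against 102 to 125) and Gad2 (363 CPM, against 193 to 288) were higher in LC rat 2, Gad1, Vip and Pvalb lay within the range of the other rats, and Npy was listed at 0 reads in every rat. LC rat 4 had summed markers of striatal projection neurons of 554 CPM, against 290 in LC rat 2 and 227 to 248 in the other 8 rats. These 2 libraries are the whole LC NoCue group, so within LC the Cue mark and these library features cannot be told apart. Markers of meningeal fibroblasts summed to 352 CPM in HC rat 16, 249 in HC rat 9 and 271 in LC rat 4, against 62.3 to 117 CPM in the other 7 rats. The 5 markers of cortical excitatory neurons summed to 1721 CPM in LC rat 2, against 2211 to 2533 CPM in the others, while the 5 hypothalamic neuropeptide genes summed to less than 1 CPM in every rat. In bulk tissue, fewer cells of a type and less RNA per cell cannot be told apart.

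Levels were compared between genes per transcript length, as deposited TPM values (transcripts scaled to a common total). Klf9, a Krüppel-like transcription factor, was highest at 89.2 ± 14.6 TPM (SD, n = 10), followed by Tsc22d3, which encodes the glucocorticoid-induced leucine zipper GILZ, at 49.3 ± 13.0 TPM. Zbtb16, a zinc finger transcription factor, had 39.9 ± 10.3 TPM. Klf9 exceeded Tsc22d3 in 10 of 10 rats, whereas Tsc22d3 exceeded Zbtb16 in 9.

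Fkbp5, the co-chaperone that lowers the receptor's affinity for its hormone, stood at 23.6 ± 4.13 TPM and below Zbtb16 in 10 of 10 rats. Sgk1, a serum- and glucocorticoid-regulated kinase, was at 23.5 ± 5.83 TPM and not separated from it, with Fkbp5 higher in 6 of 10 rats. Crhbp had 19.5 ± 4.03 TPM and Nr3c2 17.7 ± 3.00 TPM, and their order was again mixed across rats. Crhr1 (12.9 ± 3.76 TPM) lay below Nr3c2 and Crh (6.19 ± 1.24 TPM) below Crhr1 in 10 of 10 rats, so the CRH peptide gene was the lowest of the 9. Its detection rested on 36 to 95 exon reads per rat.

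**Figure D1:**
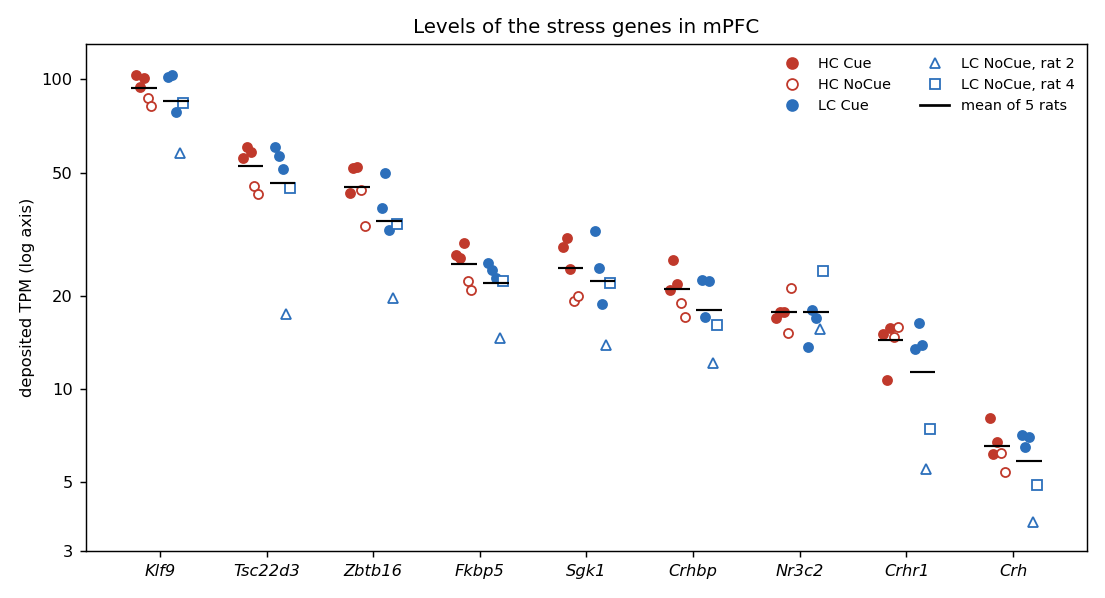
Deposited TPM (log axis) of the 9 genes in each of 10 rats, HC rats in red left of LC rats in blue, filled symbols for Cue and open symbols for NoCue rats; black lines are means of 5 rats. Klf9 is highest at 89.2 TPM and Crh lowest at 6.19 TPM on average, and LC rat 2 is the lowest rat for 8 of the 9 genes. TPM values share a common total, and 28.4% of the exon reads of LC rat 2 were mitochondrial. The part of this share in its TPM values was not tested. On exon CPM, which include the TMM factor, LC rat 2 is lowest for Tsc22d3 alone and highest for Nr3c2.

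The genes also differed in how much they varied between rats. Fkbp5 and Klf9 were steady, with a coefficient of variation of exon CPM of 8.11% and 9.19% and a within-phenotype SD of log2 CPM below that of most tested genes (percentiles 18.6 and 23.1). Nr3c2 (23.6%), Crhr1 (22.0%), Sgk1 (19.4%) and Tsc22d3 (18.6%) varied most. The highest rat had 2.09 times the lowest for Tsc22d3, 2.08 times for Crhr1 and 1.90 times for Nr3c2. LC rat 2 held the lowest Tsc22d3 and the highest Nr3c2 value, and LC rat 4 the lowest Crhr1 and the lowest Crh value.

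The first comparison asked whether the stress genes differed in mPFC between HC and LC rats. They did not pass the test in either direction: 0 of the 9 genes reached even an unadjusted p under 0.05 in edgeR's quasi-likelihood test on exon reads, where 1.74% of 14135 genes did and 0% passed at an adjusted p under 0.05. The smallest adjusted p over all genes was 0.885. The HC and LC values overlapped for each of the 9 genes, where 0.205% of all genes were higher and 0.233% lower without overlap. Log2 fold changes of HC over LC ran between -0.23 for Nr3c2 and 0.18 for Crhr1, with a median of 0.0070 over the 9 genes and 0.0047 over all genes tested.

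Fkbp5 was the most closely bounded. It had 40.7, 41.1, 43.5, 34.4 and 34.2 exon CPM in HC rats 9, 10, 11, 15 and 16, against 41.8, 38.1, 36.3, 39.5 and 37.5 in LC rats 12, 13, 14, 2 and 4. The means were 38.8 ± 4.21 in HC and 38.6 ± 2.11 in LC rats (SD, n = 5 each), and the log2 fold change was 0.01 (SE 0.09, 95% interval -0.18 to 0.19). The HC values split into 3 Cue rats above 40 CPM and 2 NoCue rats below 35 CPM.

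The widest difference, in Nr3c2, was set by few rats. Nr3c2 had 19.8, 21.2, 20.2, 18.2 and 27.0 exon CPM in HC rats 9, 10, 11, 15 and 16, against 17.3, 22.0, 20.9, 32.9 and 31.4 in LC rats 12, 13, 14, 2 and 4. The 2 high LC values belong to LC rats 2 and 4, and the other 3 LC rats lie within or below the HC range. The log2 fold change was -0.23 (SE 0.18, p = 0.23, exact permutation p = 0.33), and it turned to 0.06 without LC rats 2 and 4, to 0.01 among Cue rats and to 0.02 on the log2(TPM + 1) scale.

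Zbtb16 averaged 53.4 ± 7.79 exon CPM in HC and 47.1 ± 8.34 in LC rats (log2 fold change 0.18, SE 0.13, exact permutation p = 0.21). Without LC rat 13 its log2 fold change was 0.29 and passed the unadjusted threshold, with an adjusted p of 0.489 to 1 over its 23 alternatives. Crhr1 averaged 8.18 ± 1.27 in HC and 7.16 ± 2.03 in LC rats (0.18, SE 0.20), and it turned to -0.07 without LC rats 2 and 4.

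Crh, with 3.54 ± 0.444 exon CPM in HC and 3.62 ± 0.457 in LC rats, had a log2 fold change of -0.03 (95% interval -0.36 to 0.29). Crhbp, with 15.6 ± 2.34 in HC and 15.4 ± 2.27 in LC rats, had one of 0.02 (95% interval -0.27 to 0.30). These intervals do not show equal levels, but a change of 1 log2 unit in either direction lies outside the interval of each of the 9 genes.

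Intron reads come largely from RNA that is not yet spliced, and they gave the same picture. Of the 8 genes with enough intron reads for the test, 0 reached an unadjusted p under 0.05, against 3.07% of 12293 genes, and their log2 fold changes lay between -0.16 (Nr3c2) and 0.17 (Fkbp5). Crh, a gene with a single short intron, had 0 to 2 intron reads per rat and was not tested.

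**Figure D2:**
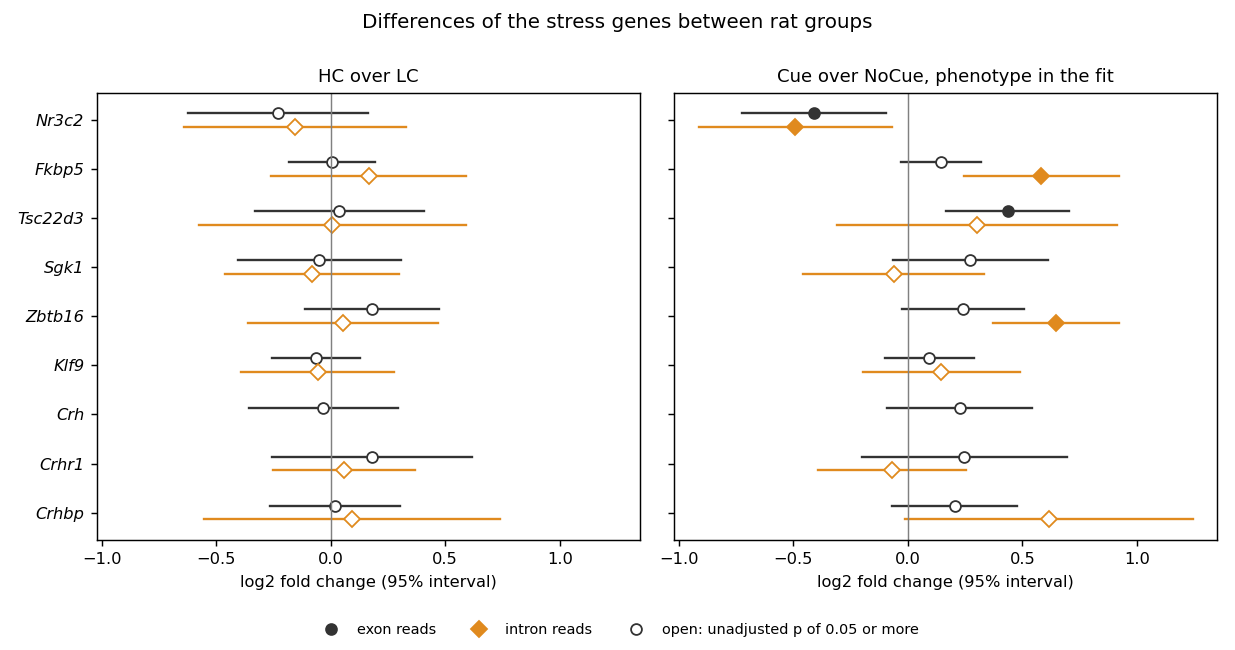
Log2 fold changes with 95% intervals for HC over LC (left) and Cue over NoCue with phenotype in the fit (right), exon reads as circles and intron reads as diamonds; filled symbols have an unadjusted p under 0.05. All 17 intervals on the left include 0, whereas on the right Tsc22d3 exon reads (0.44), Fkbp5 (0.58) and Zbtb16 (0.65) intron reads lie above 0 and Nr3c2 lies below it in both.

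The second comparison set the 6 Cue rats against the 4 NoCue rats, with phenotype in the fit. Here 8 of the 9 genes had a log2 fold change above 0 on exon reads, against 49% of all 14254 genes tested, and the median was 0.23 over the 9 genes and -0.01 over all genes. An unadjusted p under 0.05 was reached by 2 of the 9, Tsc22d3 higher and Nr3c2 lower in Cue rats, where 9.88% of all genes did (4.36% higher and 5.52% lower). No gene tested passed at an adjusted p under 0.05 in edgeR (0%), whereas 41 did by DESeq2, none of them among the 9.

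Nr3c2, the mineralocorticoid receptor, was the one gene of the 9 below 0. Its exon values were 19.8, 21.2 and 20.2 CPM in HC Cue rats, against 18.2 and 27.0 in HC NoCue rats. In LC Cue rats they were 17.3, 22.0 and 20.9 CPM, against 32.9 and 31.4 in LC NoCue rats. The groups overlapped in HC and were apart in LC, where the NoCue rats are the 2 libraries that stand apart.

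Nr3c2 had a log2 fold change of -0.41 (SE 0.14, p = 0.015, adjusted p = 0.496, exact permutation p = 0.06). It was -0.12 (SE 0.16) in HC rats alone and -0.67 (SE 0.15) in LC rats alone, and it no longer passed the unadjusted threshold without HC rat 16 (-0.37) or when scaled by library size alone (-0.29). The intron reads of Nr3c2 were also lower in Cue rats, by a log2 fold change of -0.49 (SE 0.20, exact permutation p = 0.07), and the unadjusted threshold was passed in 12 of 18 alternatives. It was not passed without LC rat 2 (-0.26), whose 64.4 intron CPM was the highest of the 10, without HC rat 11 (-0.42) or LC rat 14 (-0.47), in HC rats alone (-0.24), with exon library sizes (-0.47) or with unique reads (-0.37). On intron reads 3 of the 8 tested genes had an unadjusted p under 0.05, Nr3c2 lower and Fkbp5 and Zbtb16 higher in Cue rats, against 10.5% of all genes.

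Tsc22d3 gave the clearest exon difference of the glucocorticoid targets. It had 47.8, 53.4 and 49.1 exon CPM in HC Cue rats, against 39.9 and 40.1 in HC NoCue rats. LC Cue rats had 56.5, 50.9 and 46.7 CPM, against 27.1 and 42.8 in LC NoCue rats. Every Cue rat lay above every NoCue rat, a separation in this direction found in 1.17% of all genes tested.

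For Tsc22d3 the log2 fold change was 0.44 (SE 0.12, p = 0.0047, adjusted p = 0.496), with an exact permutation p of 0.01, the smallest that the 100 regroupings of marks within phenotype can give. It was 0.32 (SE 0.08) within HC and 0.55 (SE 0.22) within LC rats, and without LC rat 2 it was 0.30. Its adjusted p lay between 0.106 and 0.694 over 20 alternatives, and its unadjusted p was under 0.05 in all 20. Only 7 to 26 intron reads covered the short Tsc22d3 gene, and its intron value (0.30, SE 0.29) was imprecise.

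Fkbp5 separated the marks in intron reads rather than in exon reads. Its intron values were 28.1, 28.9 and 28.2 CPM in HC Cue rats, against 20.2 and 19.2 in HC NoCue rats. LC Cue rats had 30.4, 27.2 and 20.4 CPM, against 15.8 and 17.0 in LC NoCue rats. All 6 Cue rats lay above all 4 NoCue rats, as for 1.23% of genes, although the margin between LC rat 14 at 20.4 and HC rat 15 at 20.2 was narrow.

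The intron log2 fold change of Fkbp5 was 0.58 (SE 0.16, p = 0.0022, adjusted p = 0.305, exact permutation p = 0.01), and it was 0.52 in HC and 0.66 in LC rats alone. These values rest on 29 to 105 intron reads per rat. On exon reads the log2 fold change was 0.15 (SE 0.08, exact permutation p = 0.08). The HC Cue rats, at 40.7 to 43.5 exon CPM, were above the HC NoCue rats at 34.2 and 34.4 (log2 fold change 0.29, SE 0.07). The LC Cue rats, at 36.3 to 41.8, overlapped with the LC NoCue rats at 37.5 and 39.5 (0.01, SE 0.13). The interaction of phenotype with mark was 0.28 (SE 0.13, adjusted p = 0.374) and did not pass.

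Zbtb16 had the smallest p of the 9 genes in the fits over all 10 rats, again on intron reads. It had 112, 130 and 105 intron CPM in HC Cue rats, against 75.6 and 58.7 in HC NoCue rats. LC Cue rats had 113, 112 and 90.9 CPM, against 83.0 and 63.7 in LC NoCue rats. The marks did not overlap in either phenotype.

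The intron log2 fold change of Zbtb16 was 0.65 (SE 0.13, p = 1.5e-04, adjusted p = 0.134, exact permutation p = 0.01), ranking 14 of 12484 genes. It was 0.75 (SE 0.16) within HC and 0.53 (SE 0.19) within LC rats. Over 18 alternatives the adjusted p ran between 0.00487, by DESeq2, and 0.702, and it was 0.026 without LC rat 2. On exon reads Zbtb16 was 0.24 (SE 0.12, exact permutation p = 0.13) and the marks overlapped.

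Among all genes, the 1 call at an adjusted p under 0.05 on intron reads (0.00801%) was Homer1, an activity-induced synaptic scaffold gene. Its intron reads were 1017 to 1743 CPM in the 6 Cue rats, against 305 to 480 CPM in the 4 NoCue rats. The log2 fold change was 1.76 (SE 0.16, adjusted p = 1.9e-04). Homer1 lies outside the stress set and was named after its values were seen. A read in an unlisted exon within a gene is counted as intronic, so these reads need not be unspliced RNA. How many of the Homer1 reads were of this kind was not determined. The share of gene reads that fell in introns was 13.4% to 15.9% in Cue and 11.2% to 13.9% in NoCue libraries, and its part in the intron results was not tested.

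**Figure D3:**
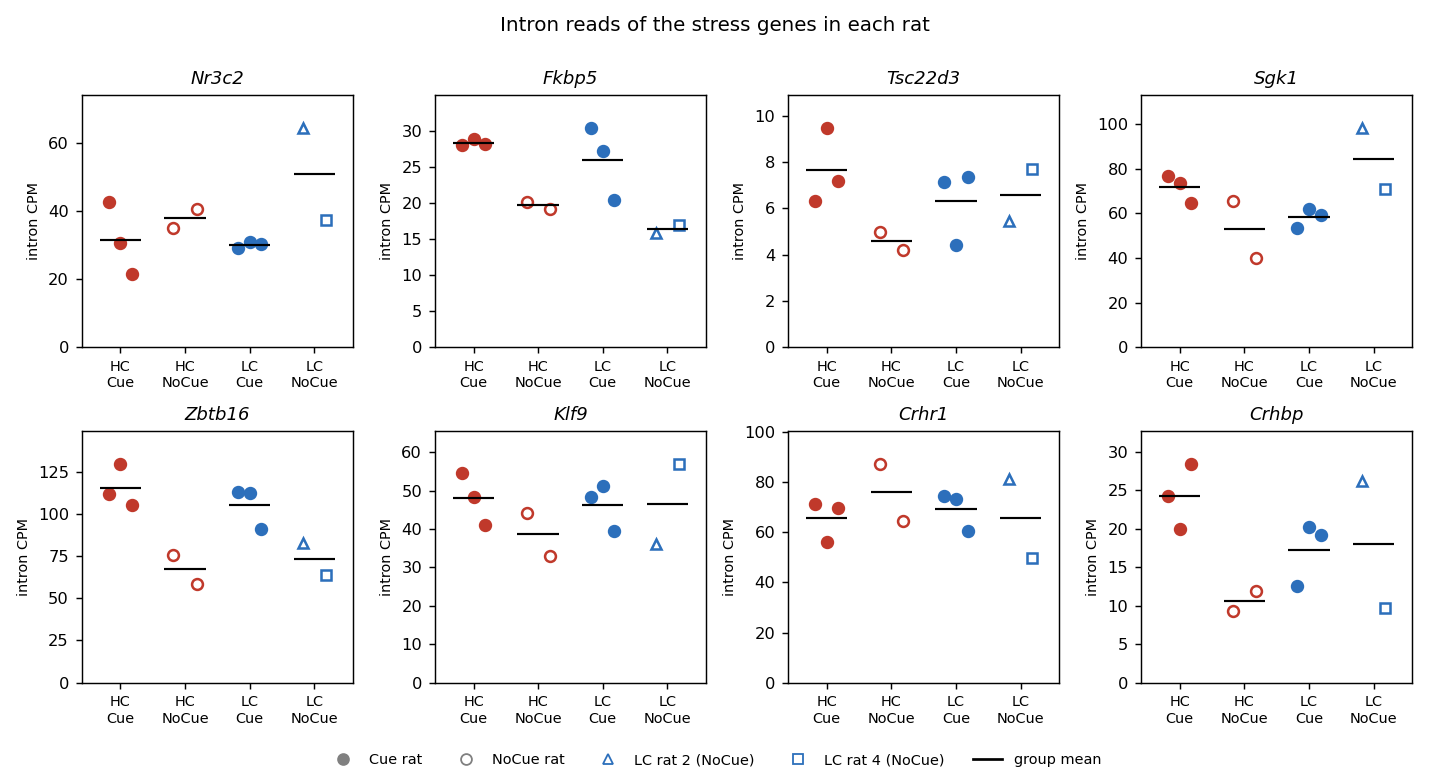
Intron CPM of the 8 tested genes in each rat, in the order HC Cue, HC NoCue, LC Cue and LC NoCue, with black lines at group means; the triangle is LC rat 2 and the square LC rat 4. For Fkbp5 and Zbtb16 all Cue rats lie above all NoCue rats, while for Sgk1, Crhbp and Nr3c2 LC rat 2 lies at or near the top.

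Sgk1 and Klf9, the remaining targets, did not pass. Sgk1 had 46.7, 51.1 and 38.9 exon CPM in HC Cue rats, against 31.9 and 35.5 in HC NoCue rats. LC Cue rats spread between 32.2 and 57.1 CPM and enclosed the LC NoCue rats at 40.5 and 40.0. The log2 fold change was 0.27 (SE 0.15, exact permutation p = 0.18) over both phenotypes and 0.44 (SE 0.12) in HC rats alone.

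Klf9 had 108 to 115 exon CPM in HC Cue and 99.0 and 99.7 in HC NoCue rats, and 92.3 to 123 in LC Cue and 104 and 116 in LC NoCue rats. Its log2 fold change was 0.09 (SE 0.09, exact permutation p = 0.35). In HC rats alone, without LC rats 2 and 4, Fkbp5, Tsc22d3, Sgk1 and Klf9 were the 4 genes with an unadjusted p under 0.05. All were higher in Cue rats, and 6.78% of all genes were under 0.05 in either direction. Their adjusted p lay between 0.421 and 0.684. The 2 HC NoCue rats of that fit include HC rat 16, whose meningeal markers were the highest of the 10, and the part of these markers was not tested. In LC rats alone the log2 fold changes were 0.01 for Fkbp5, 0.11 for Sgk1, 0.03 for Klf9 and 0.55 for Tsc22d3. Of these genes only Tsc22d3 was under 0.05 there, unadjusted. Leaving 1 rat out of the fit over both phenotypes gave 1 to 6 of 9 genes under 0.05. The lowest count was without HC rat 16, where 1033 of 14456 genes were under 0.05. The highest was without LC rat 14, where 6.41% of all genes were. At an adjusted p under 0.05 both fits had 0 genes. LC rat 14 was the lowest Cue rat for Fkbp5, Tsc22d3, Sgk1, Zbtb16 and Klf9 exon reads, so leaving it out raises their Cue means.

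**Figure D4:**
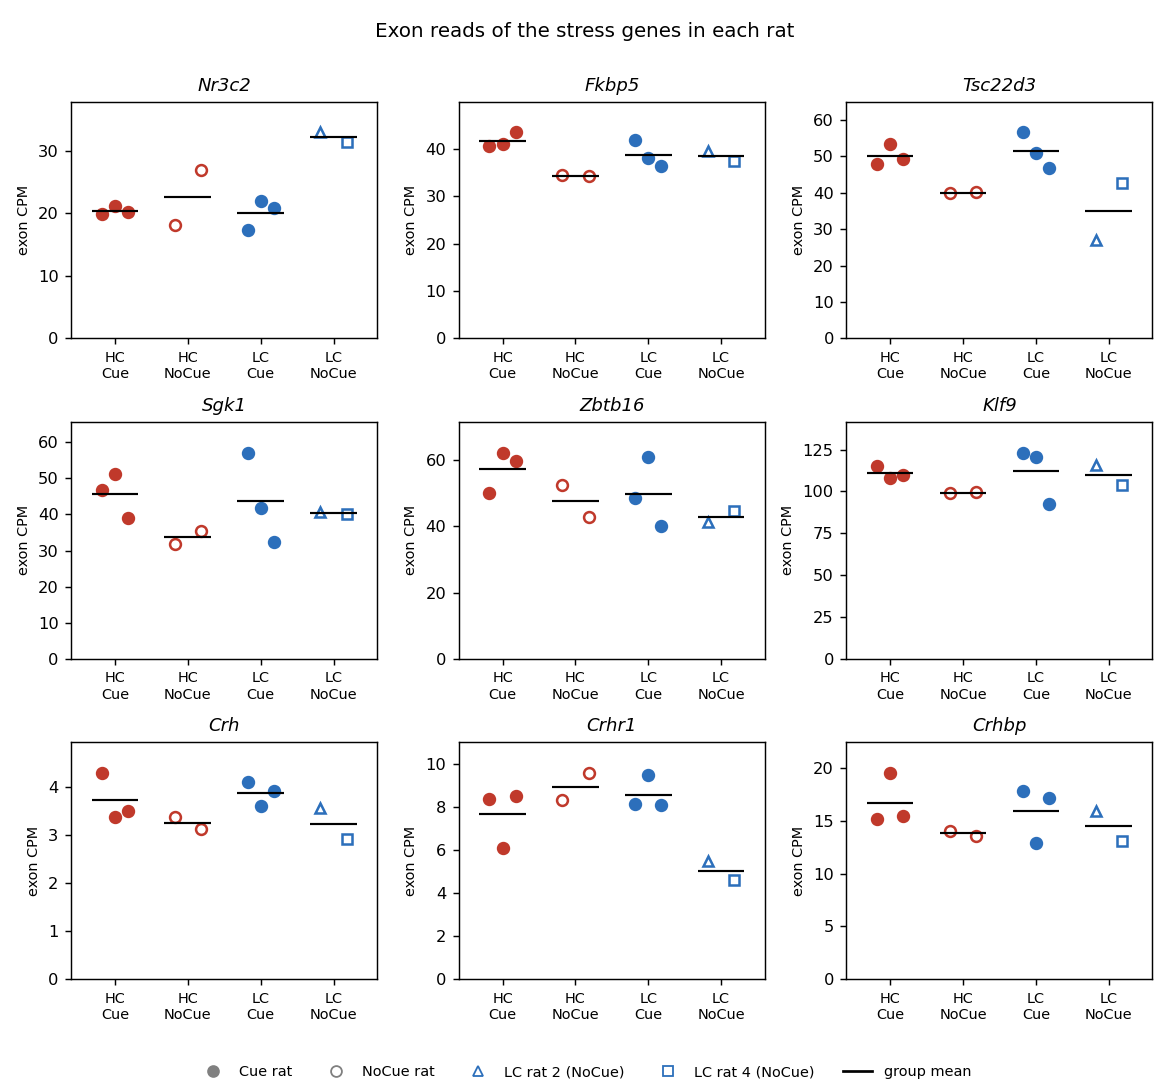
Exon CPM of the 9 genes in each rat, in the order HC Cue, HC NoCue, LC Cue and LC NoCue, with black lines at group means; the triangle is LC rat 2 and the square LC rat 4. Tsc22d3 is higher in every Cue rat than in any NoCue rat, and the 2 LC NoCue rats hold the 2 highest Nr3c2 and the 2 lowest Crhr1 values.

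Windows of 250 bases before to 50 after a start were taken from RefSeq, assembly GRCr8, which is not the Rnor_6.0 build of the deposited tables. Of the 9 genes 6 had a window, 11 windows in all, and Zbtb16, Nr3c2 and Crh were not searched. Tsc22d3 and Fkbp5 are shown because, of the 6, they were the genes whose exon or intron reads separated every Cue from every NoCue rat. They were searched on both strands for ACANNNTGT, the core spacing of a glucocorticoid response element, and for TGACGTCA, the cAMP response element. The first was in 1 of the 11 windows, 1 of the 3 of Tsc22d3, and in 6.86% of all 33469 windows. The second was in 0 of the 11 and in 1.83% of all windows. Capitals mark the match, which starts 183 bases before the start in the Tsc22d3 window chrX:109065381-109065680, minus strand. The counts cover 1 transcript of Tsc22d3, in a gene of 3612 bases in Rnor_6.0. In GRCr8 another Tsc22d3 window, without a match, lies at chrX:109009985-109010284, further from the marked window than that length. Which of the 3 starts belongs to the counted transcript was not determined, so the marked window may not be its promoter. Fkbp5, at chr20:6543506-6543805 on the minus strand, had no match to either.
Tsc22d3: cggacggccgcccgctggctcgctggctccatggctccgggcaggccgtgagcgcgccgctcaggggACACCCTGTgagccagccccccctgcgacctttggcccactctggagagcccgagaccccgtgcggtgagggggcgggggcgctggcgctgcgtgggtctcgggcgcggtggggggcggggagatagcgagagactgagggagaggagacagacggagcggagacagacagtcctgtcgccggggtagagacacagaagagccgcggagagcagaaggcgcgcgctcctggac
Fkbp5: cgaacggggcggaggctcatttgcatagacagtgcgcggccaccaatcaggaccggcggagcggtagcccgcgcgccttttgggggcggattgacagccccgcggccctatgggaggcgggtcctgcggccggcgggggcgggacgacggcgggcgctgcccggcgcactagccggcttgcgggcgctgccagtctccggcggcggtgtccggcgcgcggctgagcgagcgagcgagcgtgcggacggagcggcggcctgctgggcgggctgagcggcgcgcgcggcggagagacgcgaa
A match of these letters is a description of the window, and the search says nothing of binding.

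In Rnor_6.0 coordinates, as the tables give them, Tsc22d3 spans chrX:111884295-111887906 with 3 exons, and Fkbp5 spans chr20:7976713-8019020 with 10 exons. Zbtb16 covers chr8:52985313-53146953 with 7 exons, and Nr3c2 covers chr19:34448289-34752695 with 6. The last pair are long genes with 1 annotated transcript each, and introns took 15.9% to 30.1% of the reads of Zbtb16.

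For the CRH genes, the Cue over NoCue log2 fold changes on exon reads were all above 0 and none passed: 0.23 for Crh (SE 0.14), 0.25 for Crhr1 (SE 0.20) and 0.20 for Crhbp (SE 0.12). Crh had 4.30, 3.38 and 3.50 exon CPM in HC Cue and 3.38 and 3.13 in HC NoCue rats. It had 4.11, 3.61 and 3.93 in LC Cue and 3.56 and 2.91 in LC NoCue rats. The marks were apart in LC and overlapped in HC by less than 0.01 CPM, and the exact permutation p of Crh was 0.05, beside 0.29 for Crhr1 and 0.17 for Crhbp.

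For Crhr1, the receptor, the marks were apart in LC rats and overlapped in HC rats. Its exon values were 8.37, 6.09 and 8.52 CPM in HC Cue and 8.33 and 9.58 in HC NoCue rats. They were 8.13, 9.49 and 8.11 in LC Cue and 5.49 and 4.61 in LC NoCue rats. The LC NoCue rats were below all others, and the HC NoCue rats were not. The log2 fold change of Cue over NoCue was -0.20 (SE 0.18) within HC rats, which did not pass, and 0.77 (SE 0.21) within LC rats.

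The interaction of phenotype with mark for Crhr1 was -0.98 on the log2 scale (SE 0.27, adjusted p = 0.368), and its unadjusted p was under 0.05 in all 11 alternatives, with adjusted p between 0.0513 and 0.678. Nr3c2 was the other gene of the 9 under 0.05 for the interaction on exon reads (0.54, SE 0.24, adjusted p = 0.368), against 13.3% of all genes. It kept that threshold in 3 of 11 alternatives. Crhr1 intron reads did not follow its exon reads, with 81.3 and 49.8 CPM in LC NoCue rats 2 and 4 and 60.3 to 74.5 in LC Cue rats. Introns took 49.5% to 72.3% of the Crhr1 reads. The annotated exons of Crhr1 cover 1248 bases, so a read in an unlisted exon within the gene would be counted as intronic.

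Crhbp intron reads were 24.3, 20.0 and 28.5 CPM in HC Cue and 9.31 and 12.0 in HC NoCue rats. They were 12.5, 20.2 and 19.3 in LC Cue and 26.2 and 9.76 in LC NoCue rats. HC rats separated by mark and LC rats did not, where LC rat 2 was above every LC Cue rat. The log2 fold change over both phenotypes was 0.62 (SE 0.29, exact permutation p = 0.15), and without LC rat 2 it was 1.14 (adjusted p = 0.044, against a range of 0.044 to 0.998 over the 18 alternatives).

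Sgk1 intron reads were 77.0, 73.5 and 64.8 CPM in HC Cue and 65.6 and 40.1 in HC NoCue rats, and 53.6, 62.1 and 59.5 in LC Cue and 98.2 and 70.9 in LC NoCue rats. LC Cue rats were all below LC NoCue rats (log2 fold change -0.51, SE 0.19), and the marks overlapped in HC rats (0.38, SE 0.19). Sgk1 (0.92, SE 0.29, adjusted p = 0.396) and Crhbp (1.25, SE 0.50, adjusted p = 0.438) were the 2 of 8 genes under 0.05 for the intron interaction, where 10.5% of all genes were. Without LC rat 2 Sgk1 was 0.65 and still passed the unadjusted threshold, and Crhbp was 0.39 and did not.

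Across the 10 rats the targets were positively correlated. Pearson's r of log2 exon CPM was above 0 for 10 of the 10 pairs among Fkbp5, Tsc22d3, Sgk1, Zbtb16 and Klf9, with a median of 0.46 over all rats and 0.69 without LC rat 2. The closest pair was Sgk1 and Klf9 (r = 0.79). Over all pairs of the stress genes, these 10 included, r was above 0 for 25 of 36, with a median of 0.29. The share above 0 among pairs of all genes was not determined. Nr3c2 was below 0 with each of the 8 others, down to -0.71 with Tsc22d3. That pair was at -0.48 without LC rat 2 and -0.40 without LC rats 2 and 4, and Nr3c2 with Crhr1 turned to 0.31 without both rats, against -0.63 over all 10. These are descriptions over 10 libraries that share depth and composition effects. Each of the targets also had a Cue over NoCue log2 fold change above 0 on exon reads. The part of the Cue mark in these correlations was not tested.

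Outside the set, the genes whose exon pattern was most like Fkbp5 were Klf10 (r = 0.94, n = 10), Zc3h12c (0.93) and Bcor (0.93), among 12194 genes with a mean of at least 50 reads. Without LC rat 2 the 3 values were 0.94, 0.93 and 0.93. For Crh they were Ist1 (0.89), Slc9b1 (0.87) and Lmln (0.86).

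The wider pathway was read from 5 lists of 70 genes, 65 of them with a row. These lists were also chosen with earlier results of these data known. Of 28 other genes known to be induced by glucocorticoids, 27 were tested on exon reads. For HC over LC 0 of these 27 had an unadjusted p under 0.05 (1.74% of all genes), with a median log2 fold change of 0.07. For Cue over NoCue 9 did, 8 higher and 1 lower in Cue rats, against 9.88% of all genes (4.36% higher and 5.52% lower). The median was 0.22, and 21 of 27 were above 0, against 49% of all genes. None of the 9 passed at an adjusted p under 0.05.

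The smallest p was that of Irs2, the insulin receptor substrate, at 155 to 226 CPM in Cue rats, against 114 to 127 in NoCue rats (log2 fold change 0.58, SE 0.10, adjusted p = 0.232). Per1, a clock gene, had 118 to 168 CPM in Cue and 61.8 to 114 in NoCue rats (0.77, SE 0.15). Both separated the marks without overlap, as 1.17% of all genes did in this direction. Cdkn1a, the cell cycle inhibitor p21, also separated them, at 9.89 to 17.7 CPM in Cue and 8.45 to 9.53 in NoCue rats. Its log2 fold change was 0.57 (SE 0.14), and 1.16 on intron reads (SE 0.27). Cdkn1a was the 1 gene under 0.05 of 15 of the list tested on intron reads, where 10.5% of all genes were. The intron median was 0.085, with 9 of 15 above 0.

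Gpd1, a glycerol phosphate dehydrogenase, was at 0.54 (SE 0.14). It also separated the marks, at 57.6 to 79.4 CPM in Cue and 36.7 to 55.6 in NoCue rats. Rasd1, a dexamethasone-induced Ras protein, was at 0.47 (SE 0.13), with overlap of the marks. Zfp36, an mRNA decay factor, was the gene that was lower in Cue rats (-0.76, SE 0.27). It had 4.31 to 7.99 CPM in Cue rats and 6.95 to 19.4 in NoCue rats, and the marks overlapped. Per1 and several others of this list are known to be induced by neuronal activity as well as by glucocorticoids.

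The chaperones that hold the receptors ready for hormone had 0 of 9 under 0.05 on exon reads in either comparison. Of all genes, 1.74% were under 0.05 for HC over LC and 9.88% for Cue over NoCue. On intron reads 2 of 9 were under 0.05, against 10.5% of all genes, Stip1 (0.44, SE 0.12) and Fkbp4 (0.69, SE 0.28), both higher in Cue rats. Of 9 receptor cofactors, 1 was under 0.05 for Cue over NoCue on exon reads, against 9.88% of all genes. This was Ncoa3 (0.20, SE 0.09, adjusted p = 0.496). Of 4 tested genes of steroid metabolism and transport, 1 was under 0.05 for HC over LC, against 1.74% of all genes. This was H6pd, which supplies the cofactor for local glucocorticoid regeneration (0.36, SE 0.16, adjusted p = 0.885). H6pd had 11.4 to 12.3 CPM in HC and 5.59 to 12.0 CPM in LC rats, so the phenotypes overlapped. It was the only gene of any list under 0.05 for that comparison. The other lists had 0 of 9 chaperones, 0 of 9 cofactors, 0 of 27 induced genes and 0 of 7 CRH family genes. Of 7 tested genes of the CRH family and its partners, 1 was under 0.05 for Cue over NoCue, against 9.88% of all genes. This was Crem, a cAMP-responsive transcription factor that was higher in Cue rats (0.59, SE 0.19, adjusted p = 0.496).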

How the data were processed

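Total RNA of mPFC from 10 rats was sequenced as stranded libraries, 1 rat per library. The authors trimmed and mapped reads with CLC Genomics Workbench to the rat genome (Rnor_6.0 per the labels) and deposited, for each rat and gene, read counts (total exon reads, intron reads) and TPM. Use of strand in counting was not stated, so overlapping genes are uncertain. A deposited table of the authors' own HC against LC fold changes and p-values was not used.

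From the deposited counts, edgeR 4.0.16 (filterByExpr, TMM, quasi-likelihood test, R 4.3.3) was fitted over all genes, with Benjamini-Hochberg adjustment. CPM used TMM-scaled library sizes. Designs were phenotype alone, phenotype plus Cue mark, and their interaction; the intron interaction was added after intron values had been seen. Group means of single genes were compared by two-sided exact permutation (252 regroupings for HC and LC, smallest p 0.00794; 100 for marks within phenotype). DESeq2 1.42.0 and limma 3.58.1 served as alternatives. The fits were tested on simulated data. The study's own test was a Wald test on a generalized linear model.

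The genes and lists were chosen with earlier results of these data known. Named genes were the 10 listed, up to 6 per list and comparison with an unadjusted p under 0.05 on exon reads, smallest first, and the 3 most correlated with Fkbp5 and Crh; Stip1, Fkbp4 and Homer1 were added after their values were seen. The closest 2 of 45 library pairs differed by a chi-square of 4.66 per gene, and none was counted as a duplicate.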

Additional observations from a re-analysis of the deposited data

Results flagged for a closer look

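Among 34 groups of 5 rats (exon or intron CPM of 1 gene in HC or in LC), 1 held a rat whose gap to the nearest other rat was large against the range of the group. This was LC rat 2 for Nr3c2 intron reads, at 64.4 CPM, with the next LC rat at 37.5 and the lowest at 29.2. Chance gives such a gap in about 1 in 20 groups.

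Of 17 interaction terms, 4 had an unadjusted p under 0.05, each a difference of the Cue over NoCue log2 fold change between HC and LC rats. On exon reads, where 13.3% of all genes were under 0.05, they were Nr3c2 (0.54, adjusted p = 0.368) and Crhr1 (-0.98, adjusted p = 0.368). On intron reads, where 10.5% of all genes were under 0.05, they were Sgk1 (0.92, adjusted p = 0.396) and Crhbp (1.25, adjusted p = 0.438). None passed at an adjusted p under 0.05 with all 10 rats. The LC NoCue group in each of them is LC rats 2 and 4, and the part of the mitochondrial share and the marker levels of these libraries was not tested.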

How the results depend on the processing

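The log2 fold changes of single genes given in the report kept their direction and side of the threshold in 234 of 283 alternatives and in 292 of 340 fits without 1 rat. No paired analysis was possible because HC and LC rats share no replicate numbers. The interaction rests on 2 NoCue rats per phenotype. Added after seeing the data were, for Cue over NoCue on intron reads, DESeq2, limma-voom, HC or LC rats only, unique reads and no filter, for Cue over NoCue on exon reads, a filter at 50 reads per gene on average and library sizes without mitochondrial genes, and the interaction on intron reads with its fits without 1 rat. The cause was not tested for any change below unless stated.

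For HC over LC on exon reads, genes of the 9 with an unadjusted p under 0.05 numbered 0, with 1 in NoCue tables alone (Crhr1) and 0 to 1 without 1 rat. All genes under 0.05 numbered 246, and 451 without a filter, 391 with the mark as covariate, 423 in Cue tables, 591 in NoCue tables and 154 to 634 without 1 rat, with 0 at an adjusted p throughout. On intron reads 377 became 648 without a filter and 244 to 896 without 1 rat. Directions turned for all of the 9 genes but Zbtb16, the lowest and highest values (Nr3c2 and Crhr1) included. Nr3c2 was 0.021 on log2(TPM + 1), 0.022 on log2(TPM + 0.1), 0.013 in Cue tables and 0.063 without LC rats 2 and 4. Fkbp5 was -8.7e-05 with DESeq2 size factors, -8.1e-04 without mitochondrial genes and -0.18 in NoCue tables. Tsc22d3 was -0.035 in Cue tables and -0.16 without LC rats 2 and 4. Sgk1 was 0.046 by library size alone, 0.16 and 0.17 on the TPM scales and 0.072 in Cue tables. Klf9 was 0.037 by library size and 0.16 and 0.16 on the TPM scales. Crh was 0.060 by library size, 0.16 and 0.18 on the TPM scales and 0.0041 in NoCue tables. Crhr1 was -0.16 in Cue tables and -0.072 without LC rats 2 and 4, and Crhbp -0.078 in NoCue tables and -0.036 without those rats. Without 1 rat the ranges were -0.038 to 0.048 for Fkbp5, -0.095 to 0.12 for Tsc22d3, -0.14 to 0.071 for Sgk1, -0.11 to 0.0058 for Crh and -0.073 to 0.066 for Crhbp, and on intron reads -0.26 to 0.094 for Nr3c2. The TPM scales move the median of all genes to 0.20 and 0.23, and library size alone to 0.10.

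For Cue over NoCue on exon reads the 2 genes of 9 became 7 by library size alone, which moves the median of all genes to 0.10 and at which Nr3c2 no longer passed (-0.29), 4 in HC rats alone, and 1 to 6 without 1 rat (1 without HC rat 16, 6 without LC rat 14). All genes under 0.05 were 1408, and 888 to 2355 without 1 rat. At an adjusted p, 0 became 41 by DESeq2 and 0 to 18 without 1 rat (18 without LC rat 2). In HC rats alone Crhr1 was -0.20. On intron reads genes of the 8 under 0.05 were 2 to 4 without 1 rat. All genes under 0.05 were 1309, 836 with exon library sizes and 955 to 2001 without 1 rat. At an adjusted p, 1 became 45 by DESeq2, 2 in HC rats, 0 in LC rats, 2 with unique reads, 7 without a filter and 1 to 23 without 1 rat (23 without LC rat 2, 9 without HC rat 15, 2 without LC rat 4). In LC rats alone Tsc22d3 was -0.085, Klf9 -0.0027 and Crhr1 0.091, and in HC rats alone Sgk1 was 0.38. Without 1 rat Sgk1 ran between -0.26 and 0.14 and Crhr1 between -0.22 and 0.063.

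The interaction on exon reads had 1 to 3 genes of 9 without 1 rat, 678 to 6434 genes under 0.05 and 0 to 4977 at an adjusted p. The 4977 arise without LC rat 4, when LC rat 2 is the only LC NoCue rat and is assumed to vary like the others, and without LC rat 2 there were 3. On intron reads the ranges were 1 to 3 genes of 8, 602 to 3274 and 0 to 1078 (1078 without LC rat 4). Tsc22d3 ran between -0.60 and 0.056 on exon reads. Without LC rat 4 Tsc22d3 on exon reads (-0.60), Sgk1 (1.11) and Crhbp (1.80) on intron reads passed at an adjusted p.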
